A study of Homo sapiens with 6 samples.

Results

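The mRNAs of the 2 ferritin subunits, FTH1 and FTL, and of the transferrin receptor, TFRC, were examined for cross-linking to the translation initiation factor eIF4B. They were chosen by gene symbol, and are 3 of the 20521 genes that carried a cross-link in either cell line. eIF4B iCLIP, an immunoprecipitation of UV cross-linked RNA read at single-nucleotide resolution, had been performed in DoHH-2, a human diffuse large B-cell lymphoma (DLBCL) line, and in GM01953, a control human B-cell line from a disease-free individual. In iCLIP, reverse transcription stops at the amino acids left on a cross-linked nucleotide, so each cDNA reports 1 nucleotide, and the measurement is the number of cDNAs per position. According to the labels, DoHH-2 had 4 replicates and GM01953 had 2, and no treatment is named. The study had merged biological replicates with few reads to reach these numbers. The cell lines are not isogenic, and the values used here are 1 pooled table per line.

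Iron is stored inside the cell in the ferritin shell, which is built from heavy (FTH1) and light (FTL) chains, and is taken up as transferrin through the receptor encoded by TFRC. These mRNAs are textbook cases of control through RNA structure. When iron is scarce, iron regulatory protein 1 (ACO1) or 2 (IREB2) binds a stem–loop called the iron-responsive element. In the 5′ UTR of the ferritin mRNAs the bound protein blocks recruitment of the small ribosomal subunit and translation stops. In the 3′ UTR of TFRC the same contact protects the mRNA from decay. eIF4B assists the helicase eIF4A, which opens structure in the 5′ UTR during ribosome recruitment.

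The elements lie where they are known to be, and are printed because the question put to the data is whether eIF4B contacts fall on them. They were found by a search of the GENCODE 44 MANE Select mRNAs for a C, a stem of 5 pairs and a 6-nt loop beginning CAGTG. Capitals mark the loop, with 12 nt before and 11 nt after it.
FTH1, chr11:61967574-61967602, minus strand: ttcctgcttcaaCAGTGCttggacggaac
FTL, chr19:48965335-48965363, plus strand: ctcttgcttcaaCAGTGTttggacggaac
TFRC element 1, chr3:196050979-196051007, minus strand: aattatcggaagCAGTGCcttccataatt
TFRC element 2, chr3:196050575-196050603, minus strand: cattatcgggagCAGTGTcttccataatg
TFRC element 3, chr3:196050510-196050538, minus strand: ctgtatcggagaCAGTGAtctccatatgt
TFRC element 4, chr3:196050463-196050491, minus strand: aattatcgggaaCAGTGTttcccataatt
Coordinates are GRCh38. The 2 ferritin sequences share 26 of 29 bases, and differ by T1C, C4T and C18T from FTH1 to FTL, counted from the first base printed. In TFRC, 4 elements met the search rule, all in the 3′ UTR. Elements with another loop sequence were not searched for, so this need not be every element of TFRC.

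The FTH1 gene (ENSG00000167996, transcript ENST00000273550.12) spans chr11:61959718-61967634 on the minus strand, and its mRNA of 1203 nt has a 5′ UTR of 209 nt, a CDS of 552 nt and a 3′ UTR of 442 nt. FTL (ENSG00000087086, ENST00000331825.11) lies at chr19:48965309-48966879 on the plus strand, with a 5′ UTR of 199 nt, a CDS of 528 nt and a 3′ UTR of 144 nt in 871 nt. Both ferritin mRNAs have 4 exons. The TFRC gene (ENSG00000072274, ENST00000360110.9) spans chr3:196012511-196082153 on the minus strand in 19 exons. Its mRNA of 5012 nt has a 5′ UTR of only 71 nt, a CDS of 2283 nt and a long 3′ UTR of 2658 nt. The element of FTH1 occupies nt 39 to 55 of the mRNA and that of FTL nt 33 to 49, so that their last bases are 155 and 151 nt before the first base of the start codon. The TFRC elements begin at nt 3295, 3699, 3764 and 3811, between 941 and 1457 nt after the stop codon.

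All 3 mRNAs were cross-linked in both cell lines. DoHH-2 held 2033156 cDNA counts in all and GM01953 167197, which is 12.2 times fewer, so each value is given per 100000 counts of its own line with a Wilson 95% interval. These intervals cover counting error only, since the pooled tables hold no spread between replicates and cDNAs can include PCR copies. FTH1 had 142 counts at 81 positions in DoHH-2, or 6.98 per 100000 (5.93 to 8.23), and 33 counts at 18 positions in GM01953, or 19.7 (14.05 to 27.7). FTL had 364 counts at 146 positions in DoHH-2, or 17.9 (16.2 to 19.8), and 51 counts at 31 positions in GM01953, or 30.5 (23.2 to 40.1). TFRC had 419 counts at 332 positions in DoHH-2, or 20.6 (18.7 to 22.7), and 59 counts at 30 positions in GM01953, or 35.3 (27.4 to 45.5). For each of the 3 genes the interval of GM01953 lay above that of DoHH-2.

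The share of counts on FTH1 was 0.354 times as large in DoHH-2 as in GM01953 (95% interval 0.241 to 0.534, exact conditional binomial). The ratio was 0.587 (0.437 to 0.803) for FTL and 0.584 (0.444 to 0.781) for TFRC. Over 9416 protein-coding genes with at least 20 counts in both lines together, the median ratio was 1.285, with quartiles of 0.717 and 2.61. A ratio at or below 0.5 was met by 14.2% of these genes, and by 1 of the 3 members, FTH1. FTL and TFRC lay lower than most genes without standing at the edge, since 18.2% and 18.0% of genes had a smaller ratio, against 7.93% for FTH1. Of the 9416 genes, 885 had no count in GM01953. The set reaches down to 20 counts, where ratios carry more counting error than those of the members. Genes of like depth were not compared. The direction for FTL depended on which positions were counted. When only positions with an FDR below 0.05 were counted, its ratio became 1.54, while that of TFRC was 0.368. Counts were not divided by mRNA level, so more mRNA and more contact per mRNA cannot be told apart, and with 1 pooled value per line no test between the lines was possible.

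Binding sites are positions at which the deposited FDR is below 0.05, and a gene with more than 20 counts at its sites is called bound. The study also required enrichment of iCLIP over total RNA. That step was not applied here, so bound is a count threshold and not the study's list of bound RNAs. In DoHH-2 all 3 mRNAs were bound, as were 33.3% of protein-coding genes with a count. FTL had 264 counts at 78 sites, TFRC 165 at 91 sites and FTH1 95 at 37 sites. In GM01953, TFRC with 47 counts at 18 sites and FTH1 with 23 counts at 10 sites were bound, against 8.34% of genes, whereas FTL had 18 counts at 7 sites. In DoHH-2, 280 of 332 TFRC positions had 1 count, as did 83.9% of all positions of the line. On FTL 75 of 146 positions and on FTH1 57 of 81 had 1 count.

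Per length of mRNA the order of the genes changed. In DoHH-2, FTL had 203 exonic counts per kb and 1000000 counts of the line, FTH1 53.15 and TFRC 34.35, where the median of 10635 genes was 6.69. FTL therefore ranked 211, FTH1 837 and TFRC 1313 from the top. In GM01953 the values on this scale were 343, 149 and 56.1 in the same order, with a median of 9.36 over 8406 genes and ranks of 130, 284 and 856. The light chain mRNA thus had the most counts per length of the 3 in both lines, and TFRC the fewest. These values were not divided by mRNA level either, and the part of mRNA level in the order was not tested.

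Contacts on the ferritin mRNAs were gathered in the 5′ UTR. On FTH1, 94 of 142 counts in DoHH-2 (66.2%, 58.1 to 73.5) and 29 of 33 in GM01953 (87.9%, 72.7 to 95.2) lay there. The CDS of FTH1, which is longer than its 5′ UTR, held 28 counts in DoHH-2 and 1 in GM01953. The 3′ UTR of FTH1 held 8 counts in DoHH-2 and 0 in GM01953. In DoHH-2 the density of FTH1 counts was 449.8 per kb in the 5′ UTR, 50.7 in the CDS and 18.1 in the 3′ UTR. FTL had 2 dense ends. In DoHH-2 its 5′ UTR held 167 counts (45.9%, 40.8 to 51.0), its CDS 89 and its 3′ UTR 103 (28.3%, 23.9 to 33.1), or 839, 169 and 715 counts per kb. In GM01953 the 5′ UTR of FTL held 31 of 51 counts (60.8%, 47.1 to 73.0), the CDS 8 and the 3′ UTR 11.

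Contacts on TFRC were spread along the whole mRNA in DoHH-2, with 266 exonic positions, while GM01953 had 25. In DoHH-2 the CDS held 172 counts (41.05%), the 3′ UTR 139 (33.2%) and the 5′ UTR 39 (9.31%), while 69 counts (16.5%) lay outside the exons of the MANE Select mRNA. In GM01953 the CDS held 32 counts (54.2%), the 3′ UTR 11 (18.6%), the 5′ UTR 4 (6.78%) and other sequence 12 (20.3%). The short 5′ UTR was nonetheless the densest region of TFRC in DoHH-2, with 549 counts per kb against 75.3 in the CDS and 52.3 in the 3′ UTR. In GM01953 these densities were 56.3, 14.0 and 4.14, and the 3′ UTR counts lay at 4 positions. Of the counts outside its exons in DoHH-2, 67 were in introns, 37 of these in exons of other transcripts of the gene.

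Set beside other mRNAs with more than 20 exonic counts, the 5′ UTR share of FTH1 was among the highest. It was 72.3% of exonic counts in DoHH-2 (64.1 to 79.3), and 22 of 7594 other genes had a share at least as high. In GM01953 it was 96.7% (83.3 to 99.4), and 1 of 969 other genes reached it. FTL had a 5′ UTR share of 46.5% in DoHH-2, with 211 genes at or above it, and of 62.0% in GM01953, with 60 at or above. The median share was 8.33% in DoHH-2 and 12.5% in GM01953, and TFRC, with 11.1% and 8.51%, lay close to it. The CDS share of TFRC in DoHH-2, 49.1%, was likewise near the median of 50.4%. These are places in a distribution, with no test. They were taken over all nucleotides, including ferritin sequence that recurs elsewhere in the genome, and were not recomputed on unique sequence.

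Much of the ferritin sequence occurs elsewhere in the genome, because both genes have many processed pseudogenes, 25 annotated for FTH1 and 16 for FTL. Of the FTH1 mRNA, 60.9% of nucleotides are followed by 31 nt that occur at another place in GRCh38, and of FTL 52.1%, whereas TFRC has 0 such nucleotides. The density of FTH1 counts in DoHH-2 was 188 per kb at unique nucleotides and 61.6 at repeated ones, and that of FTL 774 and 109.6. The repeats were not spread evenly. Of the FTH1 nucleotides searched, 54.55% were repeated in the 5′ UTR, 85.9% in the CDS and 30.7% in the 3′ UTR. For FTL these values were 41.2%, 54.55% and 60.2%. How reads with several equal matches were treated is not given in the sources used here. The ratio of 5′ UTR to CDS density moved with this limit. Over all nucleotides it was 8.87 for FTH1 in DoHH-2 (5.76 to 14.05), and over unique nucleotides 2.27 (1.36 to 3.93). For FTL in DoHH-2 the ratio was 4.98 (3.83 to 6.51) and 3.99 (2.99 to 5.37). In GM01953 the corresponding ratios were 76.6 and 16.4 for FTH1, where the CDS held 1 count, and 10.3 and 8.50 for FTL. The 5′ UTR was thus denser than the CDS in unique sequence too, but the size of the difference on FTH1 depended on it.

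**Figure D1:**
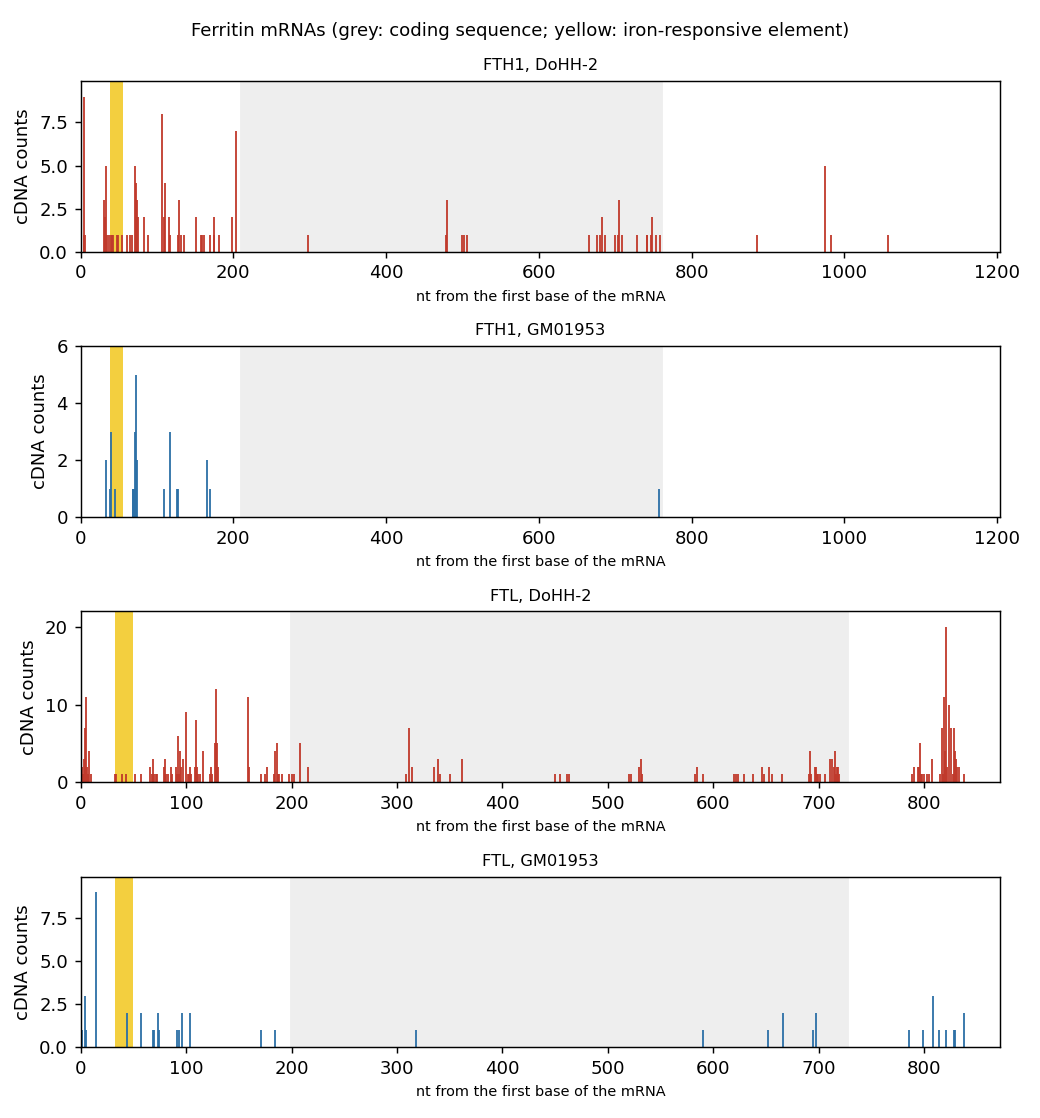
cDNA counts at each nucleotide (vertical axis) along the FTH1 and FTL mRNAs from their first base (horizontal axis, nt), in DoHH-2 (red) and GM01953 (blue), with the CDS in grey and the iron-responsive element in yellow. Counts crowd into the 5′ UTR in all 4 panels, and FTL has a further cluster near its 3′ end, with 20 counts at nt 821 in DoHH-2.

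Within the ferritin 5′ UTRs the elements themselves took a small part of the counts. The FTH1 element held 6 of 94 5′ UTR counts in DoHH-2 and 4 of 29 in GM01953. Its density in DoHH-2 was 35.3 counts per 100 nt, against 45.8 in the rest of the 5′ UTR, a ratio of 0.770 (0.275 to 1.74). In GM01953 the ratio was 1.81 (0.457 to 5.23), so neither line showed a difference beyond counting error on FTH1. The FTL element held 4 of 167 5′ UTR counts in DoHH-2 and 2 of 31 in GM01953. In DoHH-2 its density was 23.5 per 100 nt against 89.6 in the rest, a ratio of 0.263 (0.0707 to 0.686). In GM01953 it was 0.738 (0.0854 to 2.92). With each position counted once, the ratio of FTL in DoHH-2 was 0.714 and that of FTH1 was 1.83. The loop of FTH1 had 2 counts in DoHH-2 and 1 in GM01953. The loop of FTL had 2 in each line. Sequence in the element is partly repeated, at 3 of 17 nt in FTH1 and 4 of 17 in FTL. The repeated nt of FTH1 held 3 of the 4 element counts in GM01953 and 2 of the 6 in DoHH-2. Those of FTL held 2 of 4 in DoHH-2 and 0 of 2 in GM01953.

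The flanks differed between the ferritin mRNAs. With 10 nt added to each side, the FTH1 element held 20 counts in DoHH-2, a ratio to the rest of 1.26 (0.726 to 2.08), and 7 in GM01953, a ratio of 1.48 (0.534 to 3.58). The added counts came mostly from nt 31 to 34, just before the element, with 3, 2, 5 and 1 counts in DoHH-2. These nucleotides recur at 4 to 6 other places in the genome, and the part of those copies in the counts was not tested. In GM01953 the highest position there was nt 40, inside the stem, with 3 counts and an FDR of 0, followed by nt 33 with 2. The sequence at nt 40 also recurs, at 2 other places. The widened FTL element held 6 counts in DoHH-2, a ratio of 0.163 (0.059 to 0.363), and 4 in GM01953, a ratio of 0.649 (0.165 to 1.86).

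**Figure D2:**
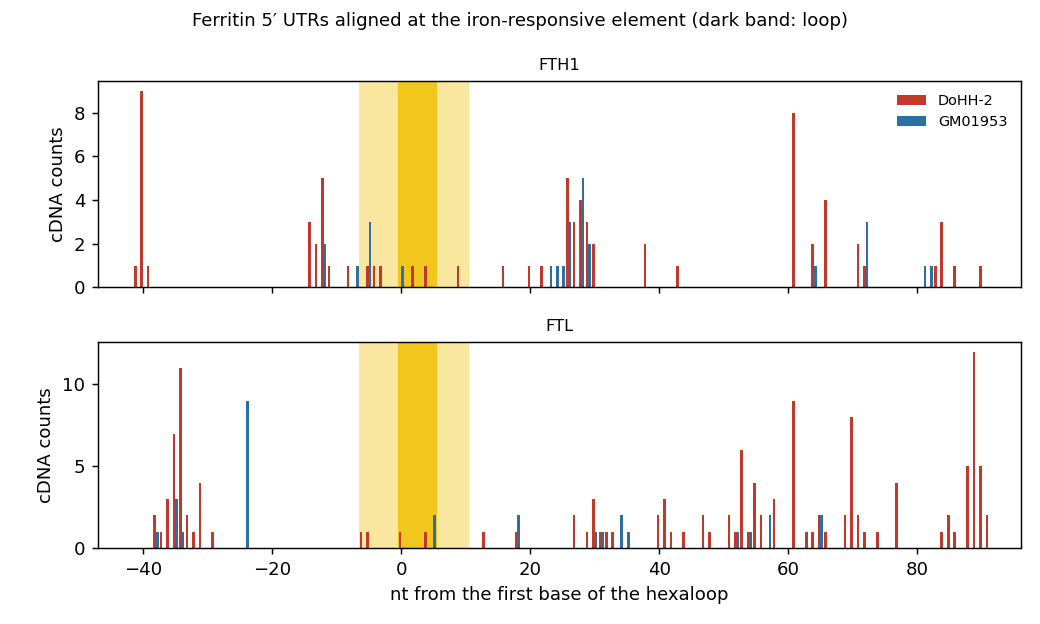
cDNA counts (vertical axis) in the FTH1 and FTL 5′ UTRs at each distance in nt from the first base of the loop (horizontal axis), in DoHH-2 (red) and GM01953 (blue), with the element in pale yellow and its loop in dark yellow. No position inside either element exceeds 3 counts, while FTL reaches 11 counts upstream of it and 12 downstream in DoHH-2.

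On both ferritin mRNAs, contacts stood on either side of the element. Between the cap and the element, FTL had 32 counts in DoHH-2 and 14 in GM01953, all within the first 20 nt. FTH1 had 23 counts there in DoHH-2, 11 of them in the first 20 nt, and 3 in GM01953, with 0 in the first 20 nt. Between the element and the start codon, FTL had 131 counts in DoHH-2 and 15 in GM01953. FTH1 had 65 and 22 there. Per 100 nt, the stretch after the element held 87.3 counts on FTL and 42.2 on FTH1 in DoHH-2, and the stretch before it 100 and 60.5. In GM01953 the stretch after it held 10.0 on FTL and 14.3 on FTH1, and the stretch before it 43.75 and 7.9, so the order on FTH1 was reversed. On FTH1, 31 of the 38 nt before the element are repeated in the genome. They held 12 of the 23 counts there in DoHH-2 and all 3 in GM01953.

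The highest single positions place these contacts to the nucleotide, and the sequence around the highest position of each mRNA in each line is printed, with the cross-linked nucleotide as a capital. FTL nt 5, the third highest in DoHH-2, is added to set it beside FTH1 nt 5.
FTL nt 5, chr19:48965309-48965323, plus strand: gcagTtcggcggtcc
FTL nt 15, chr19:48965313-48965333, plus strand: ttcggcggtcCcgcgggtctg
FTL nt 821, chr19:48966819-48966839, plus strand: gcagctttctTaactatccta
FTH1 nt 5, chr11:61967620-61967634, minus strand: gccaGacgttcttcg
FTH1 nt 73, chr11:61967552-61967572, minus strand: cggcgctcgtTccccaccccg
TFRC nt 127, chr3:196075331-196075351, minus strand: gaaccattgtCatatacccgg
TFRC nt 4244, chr3:196050042-196050062, minus strand: tcccctgaagGtctgacacgt
The highest position of FTH1 in DoHH-2 was nt 5, with 9 counts, followed by nt 106 with 8 and nt 203, 7 nt before the start codon, with 7. In GM01953 it was nt 73, with 5 counts. The highest of FTL was nt 821 in DoHH-2, with 20 counts, and nt 15 in GM01953, with 9. The highest of TFRC in DoHH-2 was nt 127, with 15 counts, 55 nt after the start codon, and in GM01953 nt 4244 in the 3′ UTR, with 5.

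The cap-proximal counts on the ferritin mRNAs were highest at the same distance from the annotated first base in DoHH-2, nt 5. This nucleotide had 9 counts on FTH1 and 11 on FTL. The cap site was taken from the annotation and not measured. On FTL both lines had counts at this end, but at positions that differed in part. In DoHH-2 they lay at nt 1 to 10, while in GM01953 nt 15 held 9 of the 14 counts and nt 1, 4 and 5 the others. Nt 1 to 20 held 32 of 359 exonic counts in DoHH-2 (8.91%, 6.38 to 12.3) and 14 of 50 in GM01953 (28.0%, 17.5 to 41.7). On FTH1 the densest 20 nt were nt 64 to 83 in DoHH-2, with 21 counts (16.15% of exonic counts, 10.8 to 23.4), and the same stretch held 13 in GM01953 (43.3%, 27.4 to 60.8). These windows were picked for their counts, so their shares are descriptions.

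The 3′ UTR cluster of FTL set it apart from FTH1. In DoHH-2 nt 814 to 833, which end 38 nt before the end of the mRNA, held 82 counts at 15 positions, or 22.8% of exonic counts (18.8 to 27.5), and all 15 positions were sites. In GM01953 the same window held 4 counts at 4 positions, or 8.0% (3.15 to 18.8), with 0 sites, and the highest 3′ UTR position was nt 808 with 3 counts. On FTH1 the highest 3′ UTR position in DoHH-2 was nt 975, with 5 of the 8 counts of that region.

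On TFRC the densest windows in DoHH-2 lay around the start codon. In DoHH-2 the window at nt 49 to 68, which ends 4 nt before the start codon, held 29 counts at 17 positions, all of them sites. Nt 119 to 138 held 28 counts at 10 positions, 15 of them at nt 127. Within 50 nt of the start codon TFRC had 42 counts in DoHH-2, or 12.0% of exonic counts, where the median of other genes was 5.56%, and 2002 of 7594 were at or above it. In GM01953 nt 119 to 138 held 6 counts and were the densest 20 nt of the mRNA, and nt 49 to 68 held 3. Within 50 nt of the stop codon TFRC had 2 counts in DoHH-2 and 0 in GM01953.

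The 4 TFRC elements that met the search rule carried 0 counts in both lines. Together they cover 68 nt, and the other 2590 nt of the 3′ UTR held 139 counts in DoHH-2, or 5.37 per 100 nt, and 11 in GM01953. The 95% interval of the ratio of the elements to the rest reached from 0 to 1.02 in DoHH-2 and from 0 to 15.2 in GM01953. A count of 0 allows up to 3 counts, or 4.41 per 100 nt, which is 0.822 times the density of the rest in DoHH-2 and 10.4 times that in GM01953. A difference was therefore not detectable at this depth in GM01953, and in DoHH-2 the interval included 1. With 10 nt added to each side of each element, DoHH-2 had 2 counts, both at nt 3286 before the first element, a ratio to the rest of 0.248 (0.0297 to 0.912). The highest 3′ UTR positions of TFRC lay away from these elements. In DoHH-2 they were nt 2612 with 7 counts, nt 2597 with 6 and nt 4281 with 5, and in GM01953 nt 4244 with 5.

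**Figure D3:**
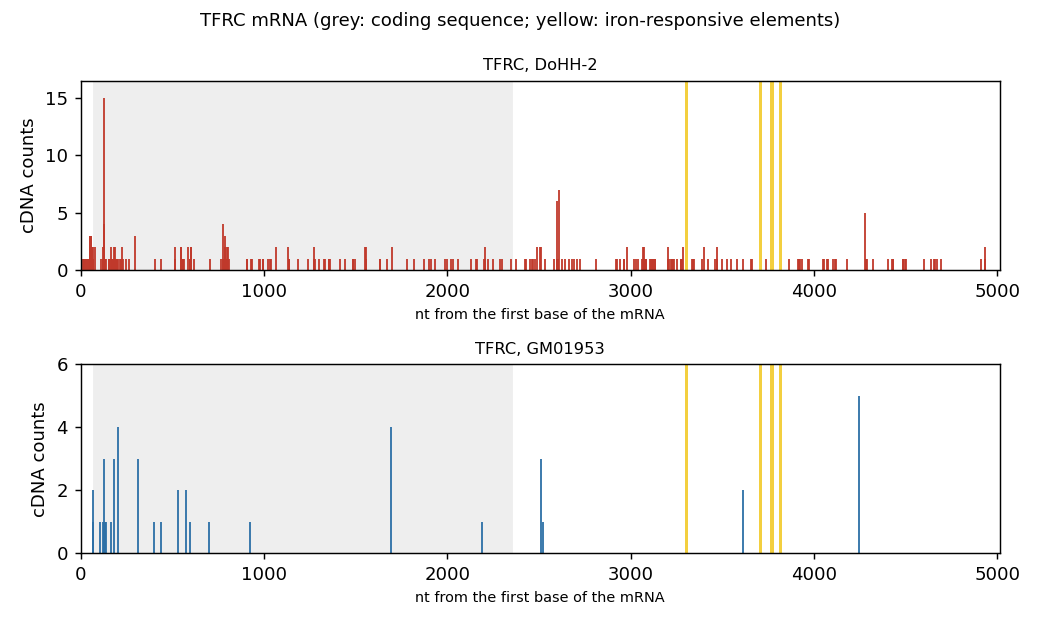
cDNA counts at each nucleotide (vertical axis) along the TFRC mRNA from its first base (horizontal axis, nt), in DoHH-2 (red) and GM01953 (blue). The CDS is grey, and the 4 iron-responsive elements that met the search rule are yellow. Counts lie along the whole mRNA in DoHH-2, with 15 at nt 127, and none falls inside a marked element in either line.

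Some nucleotides were contacted in both lines on each mRNA. Of the GM01953 positions, 17 of 31 on FTL (54.8%, 37.8 to 70.8), 7 of 18 on FTH1 (38.9%, 20.3 to 61.4) and 7 of 30 on TFRC (23.3%) were also positions in DoHH-2, as were 32.95% of all GM01953 positions. Within 2 nt the shares were 90.3%, 88.9% and 56.7% on FTL, FTH1 and TFRC. The density of DoHH-2 positions differs between these mRNAs and moves with these shares, and its part in them was not tested. Counts in windows of 10 nt had a Pearson correlation between the lines of 0.744 over 121 windows on FTH1, 0.429 over 88 on FTL and 0.310 over 502 on TFRC. The windows share libraries and base composition, so these are descriptions across the mRNA.

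Uridine was the most frequent base at the cross-linked positions of the 3 mRNAs together. It took 42.55% of 839 counts in DoHH-2 (39.25 to 45.9) and 39.4% of 127 in GM01953 (31.3 to 48.1), while 28.6% of the mRNA bases are uridine. Adenosine took 10.25% and 6.30%, against 27.1% of the bases. The members did not stand apart in this, since uridine took 42.4% and 39.9% of the counts over all mRNAs. Cytidine was as frequent as uridine on FTL in DoHH-2, with 139 counts each of 359, and in GM01953 it took 23 of 50 counts on FTL.

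The genes whose counts were divided among 5 regions most like the members were sought among 897 mRNAs. The start and stop codon regions, each reaching 50 nt to both sides, separated the 5′ UTR, CDS and 3′ UTR, and likeness was the sum of absolute differences of shares over both lines. For FTH1 these were MCTS1 (0.450), SQLE (0.527) and TGFB1 (0.566), against a median distance of 2.99. For FTL they were AKIRIN2 (0.451), IER5 (0.521) and UCP2 (0.598), with a median of 2.15. For TFRC they were TAPBP (0.237), ATP5F1C (0.245) and PDIA6 (0.271), with a median of 1.37. The 5′ UTR share enters this distance, so a like share in the nearest mRNAs follows from the measure. More than 50 nt before the start codon, FTH1 had 60.8% of its exonic counts in DoHH-2 and 86.7% in GM01953. In the same order MCTS1 had 52.6% and 85.7%, SQLE 55.95% and 96.9%, and TGFB1 64.0% and 94.9%. FTL had 37.9% and 58.0% there. AKIRIN2 had 45.8% and 62.8%, IER5 27.05% and 55.6%, and UCP2 40.6% and 62.5%.

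Of 44 other genes of iron handling, 37 had counts and 13 were bound in DoHH-2, while 32 had counts and 2 were bound in the control line. These are 35.1% and 6.25% of the genes with counts, near the 33.3% and 8.34% of all protein-coding genes, so the list did not stand out, and the genes below are given for their own values. Among the regulators of the elements, IREB2 was bound in DoHH-2, with 162 counts, and had 6 in GM01953, whereas ACO1 had 60 and 6 counts and was bound in neither. SKP1 and CUL1, subunits of the ubiquitin ligase that removes IREB2, were bound in DoHH-2 with 256 and 277 counts, and CUL1 also in GM01953 with 25. PCBP1 and PCBP2, which deliver iron to ferritin, were bound in DoHH-2 with 738 and 391 counts, and PCBP2 also in GM01953 with 56, 34 of them in its 5′ UTR. Of 6 genes of uptake, STEAP3, the ferrireductase of the endosome, was bound in DoHH-2 with 76 counts. In mitochondrial iron and iron–sulfur cluster assembly, 4 of 12 genes were bound in DoHH-2, among them GLRX5 with 131 counts, FDX1 with 108 and LYRM4 with 76, a share equal to the 33.3% of all protein-coding genes. In haem metabolism, 2 of 12 were bound in DoHH-2, CPOX with 144 counts and BLVRB with 86, or 18.2% of the 11 with counts, against the same 33.3%.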

How the data were processed

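iCLIP of eIF4B was performed in DoHH-2 and GM01953. The authors removed PCR duplicates, mapped reads to GRCh38 with HISAT2, pooled replicates and counted cDNAs per cross-link position with iCount. The deposited counts are whole numbers without normalization. The authors also deposited an FDR per position, a p-value adjusted by iCount. Tool versions and the annotation release are not given in the sources used here.

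Positions listed under several genes were counted once. They were read as 0-based, from the step in the number of positions at gene edges, and placed on GENCODE 44 MANE Select mRNAs. The members and lists were chosen with earlier results of these data known. Named were the 3 members, iron genes with more than 20 counts at sites in either line, the 3 ferritin pseudogenes with most counts, and the 3 genes most like each member. Some genes that this rule names are not reported here. FDR, positions counted once, region limits, transcript and element width were varied. Placement on the mRNA and the element search were tested on simulated data. Python 3.11.15, pandas 2.3.3 and scipy 1.17.1 were used.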

Additional observations from a re-analysis of the deposited data

Results flagged for a closer look

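Outside the counts on the 3 mRNAs, DoHH-2 held signal in 2 places that no comparison used. The strand opposite FTL carried 6 counts at 3 positions in DoHH-2 and 0 in GM01953. The annotated pseudogenes of FTH1 carried 12 counts at 11 positions in DoHH-2, the most at FTH1P3 with 3, FTH1P4 with 3 and FTH1P16 with 2, and 1 count in GM01953. GM01953 holds 12.2 times fewer counts in all, so no difference between the lines can be read from these values.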

How the results depend on the processing

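Of 91 alternative values for 34 results, 62 moved by less than the counting interval, 28 moved by more and 1, the ratio of FTL between the lines, turned a value whose interval excluded 1. The element ratio of FTH1 in DoHH-2, whose interval included 1, also crossed it, from 0.770 to 1.83 with each position counted once and to 1.26 with the element widened. With only positions at FDR below 0.05, counts per 100000 in DoHH-2 were 10.7 on FTH1, 29.7 on FTL and 18.6 on TFRC, and in GM01953 19.4 on FTL and 50.5 on TFRC. The ratio of FTL turned to 1.54 and that of TFRC was 0.368. The region more than 50 nt before the start codon then held 69.5% of FTH1 and 43.2% of FTL in DoHH-2 and 100% of FTL in GM01953. The region more than 50 nt after the stop codon held 35.2% of FTL and 21.8% of TFRC in DoHH-2 and 0.0% of FTL in GM01953, and the CDS region 55.15% of TFRC in DoHH-2. The element ratio of FTL was 0.0 in both lines. With each position counted once, DoHH-2 had 12.4 per 100000 on FTL and 28.15 on TFRC, a ratio of 0.313 for FTL, 44.4% of FTH1 in the 5′ region, 18.5% of FTL in the 3′ region, and an element ratio of 0.714 for FTL. Without positions assigned to no gene, FTL had 19.95 and TFRC 22.97 per 100000 in DoHH-2. Within 2 nt, 88.9%, 90.3% and 56.7% of GM01953 positions on FTH1, FTL and TFRC were found in DoHH-2. Unique sequence alone, chosen after seeing the data, gave the 5′ UTR to CDS ratio of 2.27 for FTH1. The causes were not tested. No paired analysis was possible because the tables pool the replicates, which also left no replicate to leave out. With 33 to 59 counts per gene in GM01953, depth limits every value there.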

Other observations

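TFRC had positions beyond its MANE Select mRNA that ranked among its highest. In GM01953, 1 position upstream of the first base of that mRNA, in an exon of another transcript, carried 5 counts, as many as the highest position on the mRNA itself. FTH1 in GM01953 had 3 counts at 1 intronic position, in an exon of another transcript, and it was a site. In DoHH-2 FTH1 had 11 intronic counts and FTL 5, with 0 sites among them.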
